A study of Homo sapiens with 9 samples.

Results

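TGFB1, TGFB2, BMP4, TGFBR1, TGFBR2, SMAD3, SMAD7, TGFBI, CCN1 and CCN2 are genes of transforming growth factor beta (TGF-beta) signalling and of its matricellular targets. These 10 genes were taken by symbol from the 61544 genes counted in the RNA-Seq libraries, each symbol matched 1 Ensembl identifier, and all 10 passed the filter that left 18653 genes for testing. The libraries were made from H1975, an established human lung adenocarcinoma line with a mutant EGFR. All cells had received si78, an siRNA that targets the 3′UTR of the mRNA of GRP78, the endoplasmic reticulum chaperone encoded by HSPA5, so no library of cells that kept their own GRP78 was analysed here. The cells were then transfected with the empty plasmid (Vector), a plasmid for FLAG-tagged GRP78 (WT) or a plasmid for the same protein with 3 lysines of its nuclear localization signal changed to alanine (NLS Mut), and each group had 3 libraries. The comparison of WT with NLS Mut asks what depends on an intact nuclear localization signal. The comparisons of either plasmid with Vector ask what depends on GRP78 expressed from a plasmid in cells treated with si78. Nothing in the labels says whether the 3 libraries of a group came from separate experiments, so p-values measure the spread between these libraries. The libraries are bulk libraries, in which fewer cells that transcribe a gene and less RNA per cell cannot be told apart.

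TGF-beta ligands are secreted in a latent form, and once released they bind the type II receptor TGFBR2, which phosphorylates the type I receptor TGFBR1. The activated type I receptor phosphorylates SMAD2 and SMAD3, which enter the nucleus with SMAD4 and act on target genes, while SMAD7, itself a target, is an inhibitor of the receptor complex. TGFBI is a secreted matrix protein named for its induction by TGF-beta, and CCN1 and CCN2 (formerly CYR61 and CTGF) are secreted matricellular proteins that are also among the best known target genes of YAP and TAZ, coactivators that bind DNA through TEAD factors.

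The promoter of CCN2 is shown because CCN2 and CCN1 are the members whose WT libraries all lay below those of both other groups. The share of all tested genes that lay so was not counted, and CCN2 passed the edgeR test over all 9 libraries in no comparison. RefSeq promoter sequences (GRCh38.p14, from 250 bases before a transcript start to 50 after it) were matched for 9 members, with 25 starts in all; CCN1 had no entry. The first stretch is the 250 bases before the start of CCN2 on the minus strand, chr6:131951373-131951622, read 5′ to 3′, and the capitals mark the letters GGAATG, the core that TEAD factors bind.
CCN2: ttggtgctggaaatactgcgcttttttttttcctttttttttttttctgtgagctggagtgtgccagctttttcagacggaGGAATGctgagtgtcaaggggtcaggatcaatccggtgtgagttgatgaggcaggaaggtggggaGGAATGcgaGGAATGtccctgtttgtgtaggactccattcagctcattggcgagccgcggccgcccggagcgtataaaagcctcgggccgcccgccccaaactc
GGAATG stands there 3 times, beginning at positions -169, -104 and -95 from the start, and the SMAD-binding letters CAGAC stand once, at -177, outside the capitals. Counted on both strands over all 35116 promoter windows of 300 bases, GGAATG was present in 14.0% and present at least 3 times in 0.128%. The second stretch, the 250 bases before the start of TGFB2 on the plus strand, chr1:218345086-218345335, is shown because TGFB2 was the ligand that passed the test in WT against Vector, and its capitals mark CAGAC.
TGFB2: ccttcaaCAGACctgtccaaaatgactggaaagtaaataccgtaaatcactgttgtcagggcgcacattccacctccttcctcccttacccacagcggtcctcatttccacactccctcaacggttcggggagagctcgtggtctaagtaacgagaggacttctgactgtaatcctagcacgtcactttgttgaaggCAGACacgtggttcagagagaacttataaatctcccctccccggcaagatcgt
CAGAC stands there 2 times, beginning at -243 and -53. Over all windows, 45.3% had at least 1 copy on either strand and 2.86% at least 3, and the share with at least 2 was not counted. Of the 9 members with a window, 4 had GGAATG and 6 had CAGAC in at least 1 of their windows, and CANNTG, the E-box letters, stood in 6 members but in no window of CCN2, TGFB1 or TGFBI. E-box letters were present in 68.7% of all windows. The counts by member cannot be set beside these shares, which are by window, because a member had up to 8 windows. By window, the TEAD core stood in 4 of the 25 windows of the members. The SMAD-binding letters stood in 14 of the 25, and the E-box letters in 14. These matches are descriptions of the letters in the window and say nothing of binding.

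The libraries held 17671055 to 27476298 reads counted on genes. HSPA5, the gene of the transfected protein, measured 359, 383 and 391 CPM (reads of the gene scaled to the TMM-normalized size of the library) in Vector, 5030, 5810 and 6150 in WT and 4960, 5160 and 4760 in NLS Mut, which checks the labels of plasmid against empty plasmid. HSPA5 reads do not separate the plasmid's transcript from the cell's own, nor WT from NLS Mut. The Vector cells kept some HSPA5 RNA, and both plasmids raised it far above Vector. Without a library of cells that kept their own GRP78, neither level can be set against the usual level of the line. The cells carried the label epithelial, and all 6 epithelial markers examined (EPCAM, CDH1, KRT7, KRT8, KRT18, KRT19) lay between 185 and 1750 CPM in every library. Of the fibroblast, immune and endothelial markers, DCN, CD3E and CD68 had no read in any library, PTPRC, PDGFRA and LUM did not exceed 0.275 CPM, and VWF did not exceed 0.601. COL1A1 was the exception at 173 to 230 CPM, with PDGFRB at 6.90 to 11.7, PECAM1 at 2.96 to 5.74 and CDH5 at 1.42 to 3.44.

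The 10 genes were transcribed at very different levels. Expressed per kilobase of exon, which allows genes to be compared with each other, the mean over the 9 libraries was 269 CPM per kilobase for TGFBI, 91.2 for CCN1, 33.4 for TGFBR2, 27.7 for CCN2, 16.3 for TGFB1, 15.3 for SMAD3, 11.8 for TGFB2, 9.94 for TGFBR1, 4.48 for BMP4 and 3.54 for SMAD7. The matrix gene and CCN1 thus stood far above the ligands and receptors, and the lowest members were BMP4 and the inhibitory SMAD7. The counts of TGFB1 and CCN2 leave out reads that overlap other genes, and held 69.7% and 80.3% of their summed stranded counts. The libraries were not strand-specific (50.6% to 51.9% of stranded counts were forward), so the sum credits a shared read to both genes. How many of these reads belong to TGFB1 or CCN2 is not known, so their places may be too low and CCN2 cannot be ranked against TGFBR2. TGFB2 lacks the reads it shares with TGFB2-OT1, and its place may be too low as well. In this order the libraries of TGFBR2 and CCN2, of TGFB1 and SMAD3, of TGFB2 and TGFBR1 and of BMP4 and SMAD7 overlapped. All further values are CPM of the whole gene, which compare a gene between libraries but not with another gene.

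**Figure D1:**
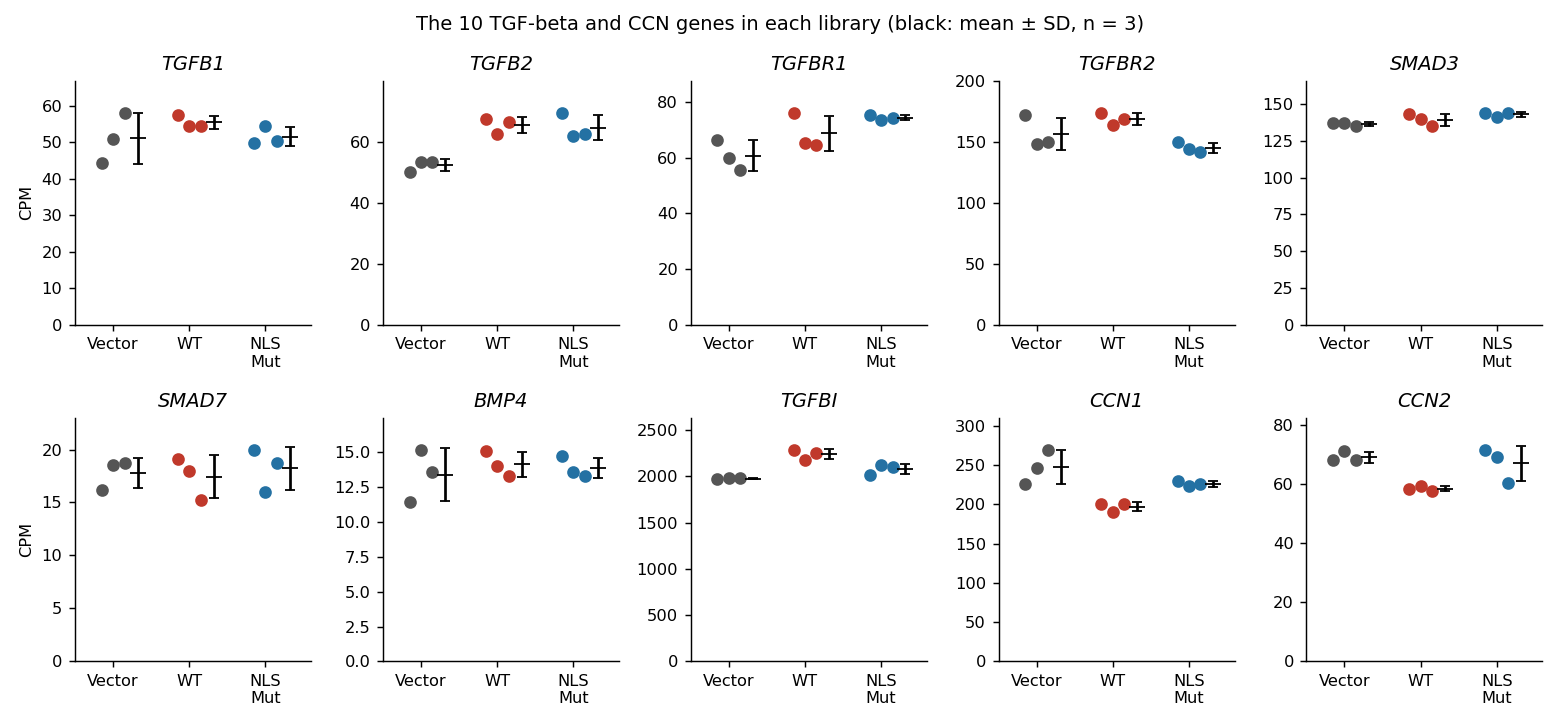
Level of each of the 10 genes in CPM (vertical axis from 0, 1 panel per gene) in the 3 Vector, 3 WT and 3 NLS Mut libraries, 1 point per library, with the group mean ± SD in black (n = 3). In WT the points of CCN1 and CCN2 lie below all Vector and all NLS Mut points and those of TGFBI above them, while the points of TGFB2 lie above Vector in both WT and NLS Mut.

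In WT against Vector, 3 of the 10 genes passed the test, which is an adjusted p under 0.05 in the quasi-likelihood test of edgeR over all tested genes. TGFB2 and TGFBI were higher in WT and CCN1 was lower. For comparison, 0.214% of all tested genes were called higher and 0.343% lower. In NLS Mut against Vector no member passed, where 0.295% of all tested genes were called higher and 0.499% lower, although 3 members had an unadjusted p under 0.05, as had 12.2% of all tested genes, and DESeq2 called 2 of them, TGFB2 and TGFBR1, among 310 genes in all. Between WT and NLS Mut no member passed either, against 0.300% of all tested genes called higher and 0.204% lower. There 4 members, TGFBR2, TGFBI, CCN1 and CCN2, had an unadjusted p under 0.05, as had 11.6% of all tested genes, and DESeq2 called 0 members among 275 genes in all. Both comparisons with Vector use the same Vector libraries, so a Vector library that lies off its group moves both.

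**Figure D2:**
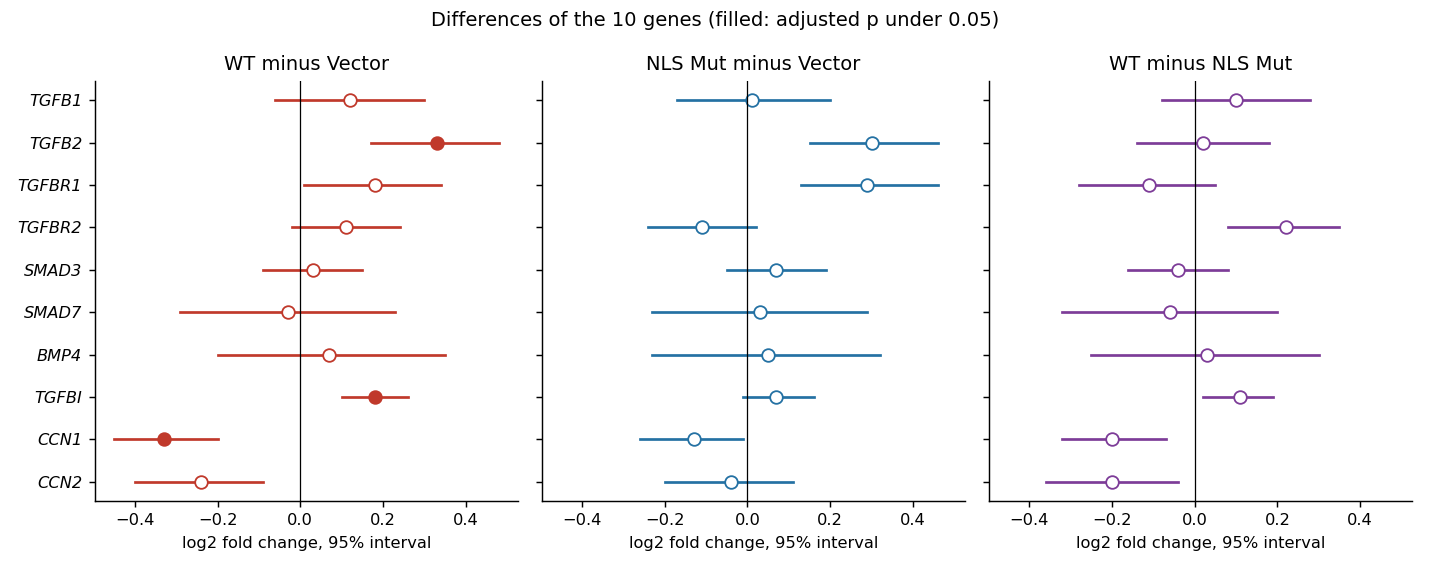
Log2 fold change (horizontal axis) of the 10 genes in the 3 comparisons, with 95% intervals from the edgeR model; filled points passed an adjusted p of 0.05. The filled points are TGFB2, TGFBI and CCN1 in WT minus Vector, and no point is filled in the other 2 panels.

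CCN1 (ENSG00000142871), an integrin-binding matricellular protein, showed the lowest adjusted p of the members. The gene lies on chromosome 1 from 85580761 to 85583950. It measured 226, 247 and 270 CPM in Vector, 200, 191 and 201 in WT and 230, 223 and 226 in NLS Mut. Every WT library was below every library of the other groups, and the NLS Mut libraries overlapped Vector only at the lowest Vector library. The WT level was 20.4% under that of Vector (log2 fold change -0.33, SE 0.06, adjusted p = 0.0075). Against NLS Mut the WT level was -0.20 on the log2 scale (SE 0.06, 95% interval -0.32 to -0.07), which did not pass the test (adjusted p = 0.15), and NLS Mut against Vector was -0.13 (adjusted p = 0.38). The WT against Vector call was lost when only those groups were fitted (adjusted p = 0.058) and when Vector replicate 2, Vector replicate 3 or WT replicate 3 was left out (highest adjusted p = 0.11), while the fold change stayed between -0.39 and -0.26 in all alternatives.

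CCN2 (chromosome 6 from 131948176 to 131951372), a matricellular protein known as a fibrosis marker, measured 68.0, 71.2 and 68.0 CPM in Vector, 58.4, 59.2 and 57.6 in WT and 71.7, 69.2 and 60.4 in NLS Mut. Here too every WT library lay below all libraries of the other groups, and the NLS Mut libraries spanned from just above WT to the top of Vector. The difference of WT from Vector was -0.24 (SE 0.08, 95% interval -0.40 to -0.09) and that from NLS Mut was -0.20 (SE 0.08, 95% interval -0.36 to -0.04), and neither passed the correction (adjusted p = 0.16 and 0.27, edgeR). The single alternative that called CCN2 was WT against Vector without Vector replicate 1 (-0.25, adjusted p = 0.045). CCN2 shares 195 of its 2339 exonic bases with an RNA on the opposite strand, AL133346.1 in GENCODE release 29, and a count made without regard to strand leaves out reads that lie on both genes. The unstranded count of CCN2 held 77.6% to 86.5% of its summed stranded counts, which in these libraries can include reads of AL133346.1. With the stranded counts summed, CCN2 differed by -0.25 from Vector (adjusted p = 0.12).

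TGFBI (chromosome 5 from 136028988 to 136063818), the most abundant member, measured 1970, 1980 and 1980 CPM in Vector, 2290, 2180 and 2250 in WT and 2020, 2120 and 2100 in NLS Mut. The libraries fell into 3 separate ranges, with Vector lowest, NLS Mut between and WT highest. WT was 13.3% above Vector (log2 fold change 0.18, SE 0.04, adjusted p = 0.032). WT against NLS Mut gave 0.11 (SE 0.04, adjusted p = 0.26) and NLS Mut against Vector gave 0.07 (SE 0.04, adjusted p = 0.47). In WT, TGFBI thus lay on the other side of Vector from CCN1, although both are known as targets of TGF-beta. The call was lost with library size alone, with only those groups fitted, and when any of 6 of the 9 libraries was left out (Vector 2 or 3, WT 1 or 3, NLS Mut 2 or 3), with a fold change of 0.15 to 0.23 throughout.

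Among the ligands, TGFB2 was the one whose libraries with either GRP78 plasmid all lay above Vector. TGFB2 (chromosome 1 from 218345336 to 218444619) encodes TGF-beta 2, an isoform with low affinity for TGFBR2 in the absence of a co-receptor. It measured 50.0, 53.3 and 53.5 CPM in Vector, 67.5, 62.7 and 66.5 in WT and 69.5, 61.8 and 62.7 in NLS Mut, and WT overlapped NLS Mut. WT was 25.3% above Vector (log2 fold change 0.33, SE 0.08, adjusted p = 0.043), and NLS Mut exceeded Vector by 0.30 (SE 0.08, adjusted p = 0.053). WT against NLS Mut was 0.02, with a 95% interval from -0.14 to 0.18, so a difference between the plasmids within that interval remains possible. TGFB2 shares 1371 of its 5151 exonic bases with TGFB2-OT1 on the same strand, and reads that fit both genes are not counted. Stranded counts cannot separate genes of the same strand, so summing them does not bring these reads back. The source of the reads that summing adds was not determined. Summing the stranded counts, which raised the reads of TGFB2 over the 9 libraries from 12510 to 13587, gave 0.26 for both plasmids against Vector (adjusted p = 0.13 for WT and 0.12 for NLS Mut), and the call was lost. It was also lost with library size alone, with only those groups fitted and without any 1 of 7 of the 9 libraries (all but Vector 1 and WT 2).

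TGFB1, the first described ligand of the family, was at 44.3, 50.9 and 58.1 CPM in Vector, 57.5, 54.6 and 54.4 in WT and 49.9, 54.5 and 50.4 in NLS Mut. The Vector libraries spanned the other groups, and the differences from Vector were 0.12 for WT (SE 0.09, adjusted p = 0.66) and 0.01 for NLS Mut (SE 0.09, adjusted p = 0.97). TGFB1 is rich in G and C (63.5% of its longest transcript), and Vector replicate 1 departed from the other Vector libraries in how levels follow GC content. Its levels changed by -0.04 on the log2 scale per 10% of GC, against 0.08 and 0.09 in Vector 2 and 3 and -0.06 to 0.03 in the WT and NLS Mut libraries. With an offset for GC content, TGFB1 in WT was 0.31 above Vector (adjusted p = 0.038). No alternative without that offset called TGFB1 in this comparison. TGFB1 shares 215 of its 3238 exonic bases with HNRNPUL1 on the opposite strand. Its count held 67.0% to 72.8% of its summed stranded counts, which can include reads of HNRNPUL1. With the stranded counts summed, WT against Vector was 0.10 (adjusted p = 0.62).

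BMP4, a ligand of the bone morphogenetic protein branch, was low at 11.4, 15.2 and 13.6 CPM in Vector, 15.1, 14.0 and 13.3 in WT and 14.7, 13.6 and 13.3 in NLS Mut. The groups overlapped in all comparisons, and the differences of 0.03 to 0.07 on the log2 scale had SEs of 0.13. The 95% interval of WT against Vector ran from -0.20 to 0.35, so differences within this interval remain possible. The interval is not a limit of detection, since differences outside it can also fail the adjusted test.

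Neither receptor passed the test in any comparison. TGFBR1, the type I receptor kinase, measured 66.6, 60.0 and 55.7 CPM in Vector, 76.2, 65.3 and 64.8 in WT and 75.3, 73.7 and 74.4 in NLS Mut. All NLS Mut libraries were above all Vector libraries, and WT overlapped both groups. NLS Mut exceeded Vector by 0.29 (SE 0.08, 95% interval 0.13 to 0.46), which did not pass in edgeR (adjusted p = 0.084) and did in DESeq2 (adjusted p = 0.042). Without Vector replicate 1 it was 0.36 (adjusted p = 0.0055), the only 1 of the 9 fits without a library that called it (highest adjusted p = 0.46). Of the 10 other alternatives 3 called it, and the GC offset was not among them. WT against Vector was 0.18 (adjusted p = 0.37).

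TGFBR2, the type II receptor that binds the ligand, measured 172, 148 and 150 CPM in Vector, 174, 164 and 169 in WT and 150, 144 and 142 in NLS Mut. WT was above every NLS Mut library, and the Vector libraries lay in both ranges because Vector replicate 1 was near WT and the others near NLS Mut. WT against NLS Mut was 0.22 (SE 0.06, 95% interval 0.08 to 0.35, adjusted p = 0.13), WT against Vector 0.11 (adjusted p = 0.54) and NLS Mut against Vector -0.11 (adjusted p = 0.53). When only WT and NLS Mut were fitted, TGFBR2 and CCN1 passed (adjusted p = 0.022 and 0.037), and without Vector replicate 1, whose removal changes the spread shared by all groups, TGFBR2, TGFBI and CCN1 passed (adjusted p = 0.013, 0.048 and 0.024). For TGFBR2 these were the only 1 of the 9 fits without a library and 1 of 2 among the 10 other alternatives that called it.

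The intracellular members did not pass either. SMAD3, the transcription factor that carries the signal, measured 137, 137 and 135 CPM in Vector, 143, 140 and 135 in WT and 144, 141 and 144 in NLS Mut. Its differences ran from -0.04 to 0.07 on the log2 scale with SEs of 0.06, and no 95% interval reached beyond -0.16 or 0.19, although the NLS Mut libraries all lay above the Vector libraries. SMAD7, which is induced by TGF-beta in many cells, measured 16.2, 18.5 and 18.7 CPM in Vector, 19.1, 18.0 and 15.2 in WT and 20.0, 16.0 and 18.7 in NLS Mut. The groups overlapped throughout, the differences were -0.06 to 0.03 and the intervals reached from -0.32 to 0.29. Differences of SMAD7 within these intervals remain possible.

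Members whose groups did not overlap were 2 higher and 2 lower in WT against Vector, where 6.53% and 6.54% of all tested genes did so, 2 higher and 2 lower in WT against NLS Mut (8.25% and 9.42% of all tested genes) and 4 higher and 0 lower in NLS Mut against Vector (9.28% and 8.82%). The 4 in the last comparison were TGFB2, TGFBR1, SMAD3 and TGFBI. The median log2 fold change of the 10 genes was 0.09 for WT against Vector, 0.04 for NLS Mut against Vector and -0.01 for WT against NLS Mut, beside medians over all tested genes of -0.002, -0.002 and -0.005.

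**Figure D3:**
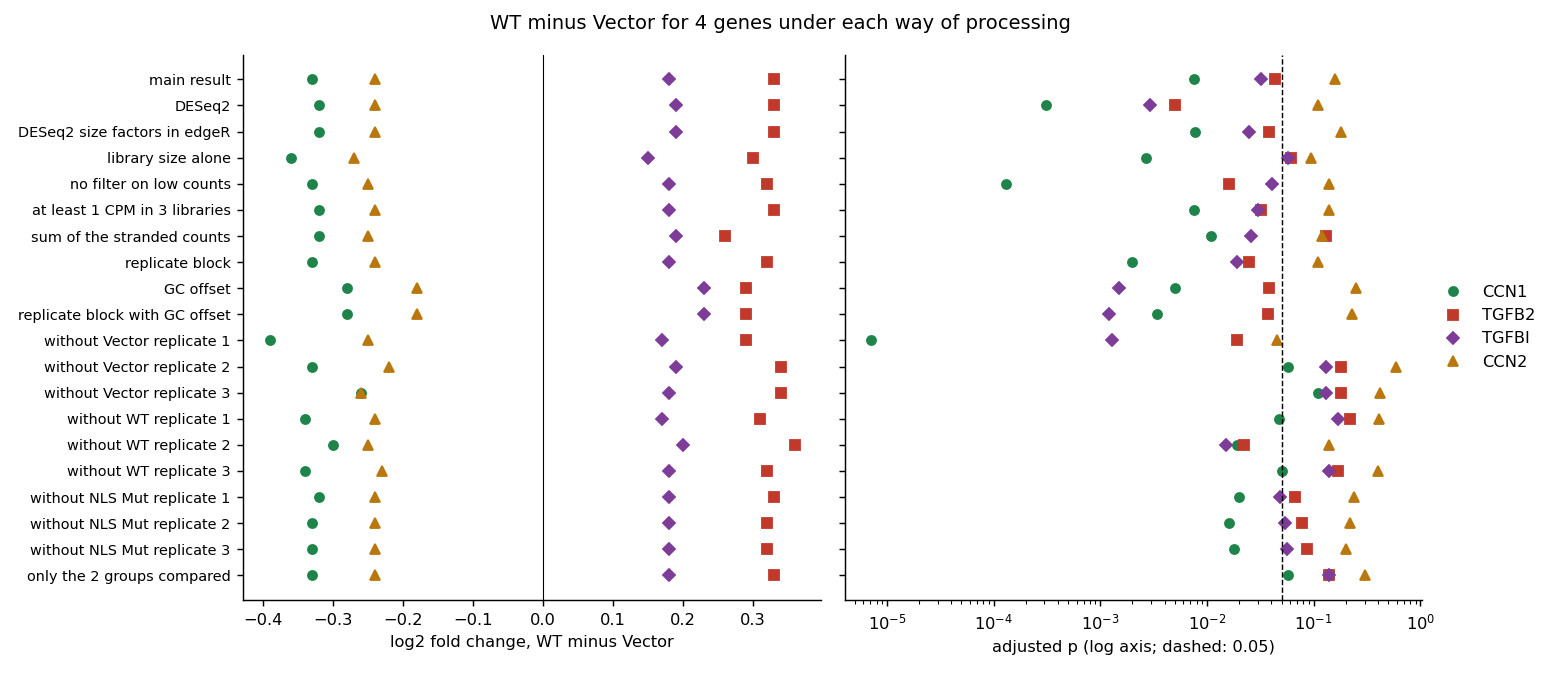
WT minus Vector for CCN1, TGFB2, TGFBI and CCN2 under each way of processing (rows), as the log2 fold change (left) and the adjusted p on a log axis (right, dashed line at 0.05). The fold changes keep their sign in every row, while the adjusted p of CCN1, TGFB2 and TGFBI crosses the dashed line in several rows and that of CCN2 lies left of it only without Vector replicate 1.

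The other genes of the pathway were 117 genes in 9 lists, of which 106 could be tested. In WT against Vector 1 gene was higher and 1 lower, in NLS Mut against Vector 0 were higher and 3 lower, and between WT and NLS Mut none passed. DESeq2 called 3 of its 275 genes between WT and NLS Mut here, among them BMP1 and FSTL1. An unadjusted p under 0.05 was found for 23, 17 and 24 of the 106 genes in WT against Vector, NLS Mut against Vector and WT against NLS Mut. The shares of all tested genes at that p were 11.7%, 12.2% and 11.6%. The median log2 fold change over the tested pathway genes was 0.03 for WT against Vector, 0.02 for NLS Mut against Vector and 0.01 for WT against NLS Mut. Of the 106 genes, 62, 55 and 59 had a fold change above 0 in these comparisons, beside 49.5%, 49.7% and 48.9% of all tested genes.

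**Figure D4:**
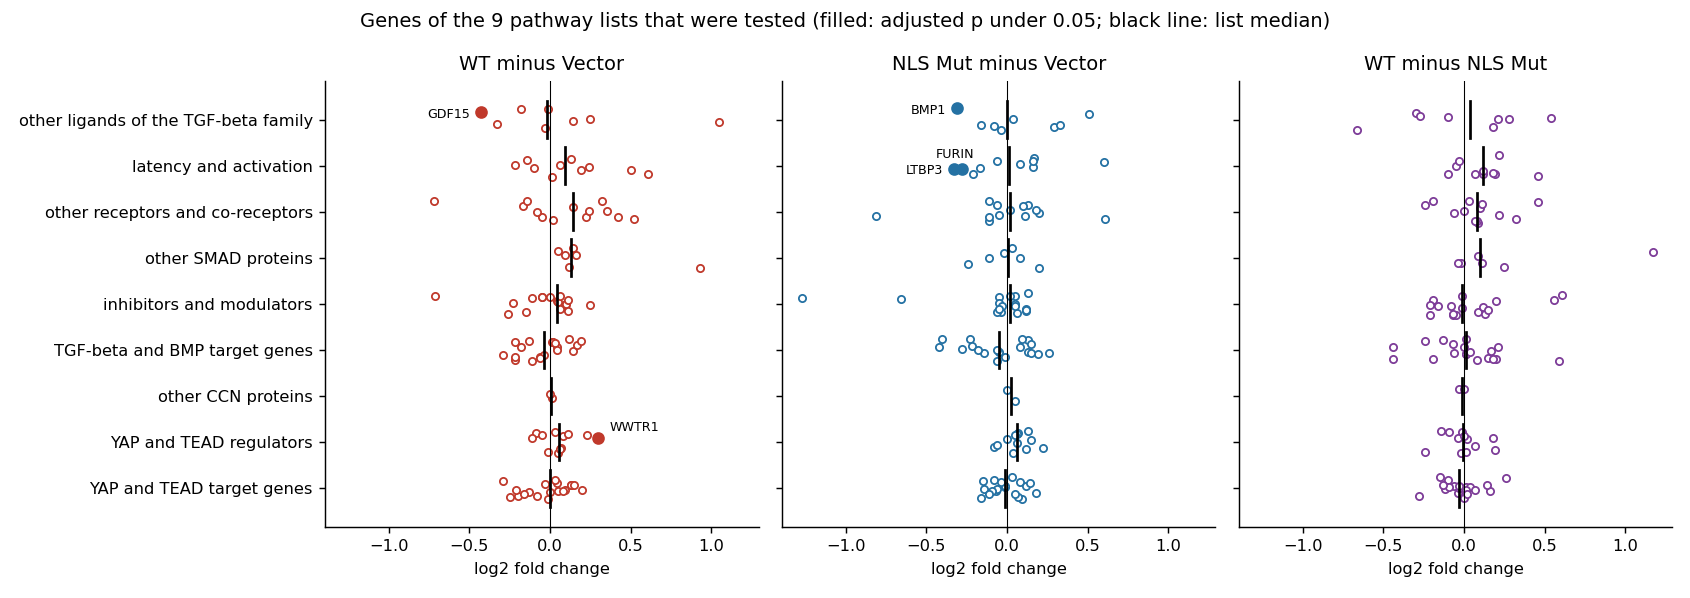
Log2 fold change of each tested gene of the 9 pathway lists in the 3 comparisons, 1 point per gene, with the list median as a black line and genes of adjusted p under 0.05 filled and named. The medians of all lists lie near 0, and the filled genes are GDF15 and WWTR1 in WT minus Vector and BMP1, LTBP3 and FURIN in NLS Mut minus Vector.

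Of the 8 other ligands of the family that could be tested, GDF15, a stress-induced and distant member of the family, was the gene lower in WT. It measured 78.6, 81.9 and 89.1 CPM in Vector, 56.1, 69.9 and 59.3 in WT and 79.8, 69.2 and 74.7 in NLS Mut. WT was below Vector in all libraries (log2 fold change -0.43, SE 0.08, adjusted p = 0.0098), and WT against NLS Mut was -0.27 (adjusted p = 0.15). The difference from Vector was -0.26 with the offset for GC content (adjusted p = 0.043), and 14 of the 19 alternatives called it. BMP2 lay at 27.0 to 35.7 CPM and no comparison passed. INHBB, BMP6, BMP7, GDF5 and LEFTY1 were below the filter.

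The genes lower in NLS Mut than in Vector were BMP1, LTBP3 and FURIN. BMP1, listed with the ligands for its name, is a metalloproteinase that processes procollagen, and it measured 143, 157 and 162 CPM in Vector, 141, 158 and 153 in WT and 127, 129 and 116 in NLS Mut (NLS Mut against Vector -0.31, SE 0.07, adjusted p = 0.020). WT against NLS Mut was 0.28 for BMP1, which did not pass (adjusted p = 0.055) and was called in 11 of the 19 alternatives. LTBP3, which binds latent TGF-beta to the matrix, measured 150, 162 and 160 CPM in Vector, 134, 149 and 145 in WT and 121, 126 and 129 in NLS Mut (-0.33, SE 0.06, adjusted p = 0.0063). FURIN, the convertase that cleaves the TGF-beta precursor, measured 129, 141 and 135 CPM in Vector, 122, 131 and 124 in WT and 110, 110 and 114 in NLS Mut (-0.28, SE 0.06, adjusted p = 0.026). In each of the 3 genes every NLS Mut library lay below every other library. With the offset for GC content the differences were -0.17, -0.12 and -0.13 for BMP1, LTBP3 and FURIN, and none passed (adjusted p = 0.14, 0.46 and 0.30). The calls of these genes against Vector were made in 12, 14 and 12 of the 19 alternatives. THBS1, an activator of latent TGF-beta, was at 358 to 371 CPM in Vector, 377 to 417 in WT and 396 to 429 in NLS Mut, and its differences of 0.13 and 0.16 from Vector did not pass (adjusted p = 0.32 and 0.17). ITGAV, an integrin subunit that binds the latent complex, differed by 0.19 in WT from Vector (adjusted p = 0.23).

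None of the 13 other receptors and co-receptors passed in any comparison, with 6, 2 and 3 at an unadjusted p under 0.05 in WT against Vector, NLS Mut against Vector and WT against NLS Mut. Over all tested genes the shares at that p were 11.7%, 12.2% and 11.6%, against which this and the following counts of the lists are to be read. Those with the most reads were CD109, a co-receptor that restrains TGF-beta signalling, with 0.32 in WT against Vector (adjusted p = 0.063), NRP1 with 0.24 (adjusted p = 0.093, called by DESeq2) and ENG with 0.02 (adjusted p = 0.93). The other SMAD genes did not pass either, with 2, 1 and 1 of 6 at an unadjusted p under 0.05, and the differences of SMAD5, SMAD2 and SMAD4 from Vector lay between -0.02 and 0.20. Of the 17 tested inhibitors and modulators, FSTL1, a secreted follistatin-like protein, came closest with 0.25 in WT against Vector (adjusted p = 0.051), and DESeq2 called it there and between WT and NLS Mut. SMURF1 and TRIM33 were within 0.09 of 0 in each comparison. In this list 2, 0 and 3 genes had an unadjusted p under 0.05.

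Among the 19 genes known as TGF-beta and BMP targets none passed, with 2, 5 and 6 at an unadjusted p under 0.05 in the same order of comparisons. JUNB was -0.22 in WT and -0.23 in NLS Mut against Vector (adjusted p = 0.24 and 0.18), and TPM1 was 0.04 and -0.01.

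No other CCN gene passed, and none had an unadjusted p under 0.05. CCN5 lay between 71.3 and 81.8 CPM and CCN3 between 10.5 and 14.7 CPM, with differences within 0.05 of 0 in each comparison, and CCN4 and CCN6 were below the filter. Among the regulators that act through TEAD, WWTR1, which encodes TAZ, was higher in WT at 139, 132 and 132 CPM than in Vector at 117, 103 and 106 (log2 fold change 0.30, SE 0.07, adjusted p = 0.032), with NLS Mut at 112, 118 and 127. With the stranded counts summed the difference was 0.19 (adjusted p = 0.18), and 9 of the 19 alternatives called WWTR1. YAP1, NF2 and TEAD1 differed by at most 0.07. None of the 19 tested YAP and TEAD target genes other than the CCN genes passed, with 4, 2 and 3 at an unadjusted p under 0.05, and their median was 0.00 in WT against Vector. MYOF, CRIM1 and AJUBA, the genes of this list with the most reads, had differences of 0.13, 0.09 and -0.03 in WT against Vector (adjusted p = 0.28, 0.61 and 0.89).

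The genes whose levels over the 9 libraries were most like those of CCN1, by the root mean square difference of centred log2(CPM + 1) among 10070 genes of at least 10 CPM, were SMG9 (0.043), DNAJB11 (0.051), MUS81 (0.053), ATAD3B (0.058) and HKDC1 (0.059). The spread of CCN1 itself on this scale was 0.148. DNAJB11 measured 103 CPM in Vector, 87.4 in WT and 95.1 in NLS Mut as group means, and HKDC1 161, 125 and 150. For CCN2, with a spread of 0.122, they were ORC5 (0.044), HYLS1 (0.049), IFFO2 (0.056), ZSCAN25 (0.057) and SLC7A5 (0.057). SLC7A5 measured 1070 CPM in Vector, 914 in WT and 1050 in NLS Mut as group means. CCN1 and CCN2 were not on each other's list, and these likenesses are a description over 9 libraries.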

How the data were processed

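RNA-Seq of 9 H1975 libraries was analysed, 3 each of Vector, WT and NLS Mut. The authors deposited raw counts of reads per gene in the layout of STAR, and per the labels they used STAR 2.7.9a, DESeq2 1.36.0 and GRCh38.p14. The unstranded counts were used. The 4 summary lines of each library (27.6% to 30.7% of reads) were left out. Symbols came from the gene names table supplied with the reference, exonic length and GC content from GENCODE release 29, and places and promoters from RefSeq (GRCh38.p14).

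Counts were filtered with filterByExpr, scaled with TMM factors, which lay between 0.989 and 1.02, and all 9 libraries entered the same quasi-likelihood model in edgeR 4.0.16 (R 4.3.3). P-values are two-sided, adjusted by the Benjamini-Hochberg method over 18653 genes, with a threshold of 0.05, and the median biological coefficient of variation was 11.2%. An exact permutation test of 3 against 3 cannot go below 0.10. Standard errors and intervals come from the model. The scripts were tested on simulated counts. Alternatives were DESeq2 1.42.0, other scaling, filters, stranded counts, fits of 2 groups, the replicate number as a block, a GC offset (loess, span 0.3) and leaving out each library.

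The members and lists were chosen with earlier results of these data known. Named genes are all members, list genes called in any comparison or among the 3 of highest CPM in a list, and the 5 genes most like CCN1 and CCN2; members of the lists below the filter were named after their values were seen. Not every gene that this rule names is reported here.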

Additional observations from a re-analysis of the deposited data

How the results depend on the processing

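Counts of called genes were small and moved with the processing, whereas the fold changes of the 10 genes kept their direction in all but 20 of 570 refits, and these 20 concerned differences near 0. The calls are given in the order WT against NLS Mut, WT against Vector and NLS Mut against Vector, and were 0, 3 and 0 members and 0, 2 and 3 pathway genes. All called genes numbered 94, 104 and 148. DESeq2 called 0, 3 and 2 members and 3, 4 and 3 pathway genes of 275, 221 and 310 genes in all; DESeq2 size factors in edgeR gave 1 pathway gene of 90 between WT and NLS Mut. Library size alone left 1 member and 1 pathway gene in WT against Vector (141 in all). Without a filter there were 0, 3 and 2 members and 1, 7 and 4 pathway genes (225, 289 and 240 in all), and with at least 1 CPM in 3 libraries 0, 3 and 1 members and 1, 3 and 3 pathway genes (134, 126 and 174). The GC offset gave 5, 5 and 2 pathway genes (331, 260 and 290), and with the replicate block added 2, 4 and 0 members and 5, 5 and 3 pathway genes (382, 284 and 317). Fitting only the groups compared gave 2, 0 and 0 members and 4, 0 and 3 pathway genes (315, 26 and 151). The replicate block, with no GC offset, gave 0, 3 and 2 members and 2, 5 and 3 pathway genes (212, 232 and 230). Whether libraries of the same number belong together is not known. Same-numbered deviations correlated by -0.04 to 0.32, and 2 of 9 pairs were over 0.1. These were Vector 1 with WT 1 (0.32) and Vector 2 with WT 2 (0.23). Leaving out 1 library gave 0 to 3, 0 to 4 and 0 to 3 members and 0 to 5, 0 to 16 and 0 to 11 pathway genes. The highest of each range came without Vector replicate 1, where all called genes numbered 388, 1256 and 1002. Without Vector replicate 2 or 3, or WT replicate 3, no member was called in WT against Vector. A comparison that leaves 2 libraries in a group assumes that their spread is that of the others.

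Reversed values were TGFB1 in NLS Mut against Vector with library size alone (-0.01), and, with the GC offset, with or without the replicate block, SMAD7 in WT against Vector (0.09) and CCN2 in NLS Mut against Vector (0.02). Leaving out single libraries gave ranges for TGFB1 (-0.08 to 0.11), SMAD7 (-0.05 to 0.11), BMP4 (-0.06 to 0.14) and CCN2 (-0.10 to 0.02) in NLS Mut against Vector, for SMAD7 (-0.10 to 0.06) and BMP4 (-0.03 to 0.18) in WT against Vector, and for SMAD7 (-0.15 to 0.03), BMP4 (-0.02 to 0.08) and TGFB2 (-0.01 to 0.08) in WT against NLS Mut. The cause of these changes was not tested.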
